A study of Homo sapiens with 8 samples.

Results

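The 10 genes described here, *CXCL1*, *CXCL2*, *CXCL3*, *CXCL5*, *CXCL8*, *CCL2*, *CCL20*, *IL6*, *IL1A* and *IL1B*, encode inflammatory chemokines and cytokines. They were chosen by name, and are 10 of the 22439 genes that could be named on the arrays. Their RNA was measured on 8 Agilent oligonucleotide arrays, each hybridized with the Cy5-labeled RNA of a treated lung cancer cell line and the Cy3-labeled RNA of the control of the same line. Transfection with *miR-150-3p*, the passenger strand of a tumor-suppressive microRNA, was measured on 1 array of EBC-1 and 1 array of SK-MES-1 cells, both lung squamous cell carcinoma lines. SBC-3, a small cell lung cancer line, received siDONSON-1, siDONSON-2 or siDONSON-3, siRNAs against the replication gene *DONSON*, on 1 array each. A549, a lung adenocarcinoma line, had *LOXL2*, which encodes a lysyl oxidase that crosslinks collagen, edited with CRISPR/Cas9 and was measured on 3 arrays named A549-GE1, A549-GE2 and A549-GE3. The labels call the control of the transfected cells both mock and not transfected, and that of A549 a control without genome editing. They give neither the time after treatment nor whether the 3 edited A549 samples are separate clones. The study's methods state transfection times for miRNAs and siRNAs by type of experiment, without naming the arrays. All arrays lay on 1 slide, and dyes were not swapped, so a dye effect particular to a gene cannot be told apart from a treatment effect. Nothing in the labels says that arrays of a group came from separate cultures, so the p-values measure the spread between these arrays. Each gene's spread was estimated over the arrays of all treatments. The SE and p-value of a treatment thus include the gap between EBC-1 and SK-MES-1 and that between the siRNAs, where the gene was counted.

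The *CXCL* genes of this list encode ligands of the receptor CXCR2 that attract neutrophils, and they lie together in a cluster on chromosome 4. *CCL2* encodes the ligand of CCR2, which attracts monocytes, and *CCL20* that of CCR6 on lymphocytes and dendritic cells. *IL6* encodes a cytokine that signals through gp130 to STAT3. *IL1A* and *IL1B* encode the interleukin-1 ligands that act through IL1R1 and MyD88 and themselves induce the other genes. In epithelial and cancer cells these genes are known as targets of the transcription factor NF-κB, which binds κB sites in their promoters.

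Promoter sequences are shown because several of the genes hold a κB form at nearly the same place. Whether this form has a part in the changes below was not tested. RefSeq promoter windows (GRCh38.p14, 250 bases before and 50 after a gene's start) were given for 9 of the 10 genes, all but *CCL2*. For the 7 genes with a match to GGNNTTTCC, a form of the κB site, the 130 bases before the start are printed. They run 5′ to 3′ on the strand of the gene, with every match in capitals.
CXCL1 (chr4:73869263-73869392, plus strand): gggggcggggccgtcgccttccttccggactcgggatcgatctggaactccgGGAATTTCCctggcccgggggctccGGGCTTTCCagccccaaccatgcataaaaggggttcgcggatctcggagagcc
CXCL2 (chr4:74099196-74099325, minus strand): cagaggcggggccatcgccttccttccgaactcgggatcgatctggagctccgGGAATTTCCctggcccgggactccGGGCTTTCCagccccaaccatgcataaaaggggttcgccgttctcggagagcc
CXCL3 (chr4:74038690-74038819, minus strand): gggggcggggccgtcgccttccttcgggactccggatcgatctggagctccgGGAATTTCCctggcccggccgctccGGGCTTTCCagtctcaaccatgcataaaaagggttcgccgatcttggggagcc
CXCL5 (chr4:73998678-73998807, minus strand): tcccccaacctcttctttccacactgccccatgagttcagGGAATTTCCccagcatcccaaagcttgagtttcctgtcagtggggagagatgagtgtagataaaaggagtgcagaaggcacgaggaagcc
CXCL8 (chr4:73740439-73740568, plus strand): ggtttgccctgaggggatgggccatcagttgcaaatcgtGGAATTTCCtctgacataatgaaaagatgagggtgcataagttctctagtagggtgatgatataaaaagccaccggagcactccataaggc
CCL20 (chr2:227813712-227813841, plus strand): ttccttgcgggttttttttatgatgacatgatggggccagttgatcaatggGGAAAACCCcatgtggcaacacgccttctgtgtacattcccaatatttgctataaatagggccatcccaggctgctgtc
IL6 (chr7:22727070-22727199, plus strand): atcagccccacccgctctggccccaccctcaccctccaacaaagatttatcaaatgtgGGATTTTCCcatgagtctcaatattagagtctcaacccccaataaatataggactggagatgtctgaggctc

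Both strands of the 250 bases before the start were searched for GGNNTTTCC and GGAATTTCC, forms of the κB site, for TGANTCA, a form of the AP-1 site, and for the TATA box TATAAA. GGNNTTTCC was found in 7 of the 9 genes, not in *IL1A* and *IL1B*, and in 5.48% of 35116 windows of all genes. This form was shortened from a longer one after matches had been seen, so the count is a description and no test. *CCL2* had no window to search. The match began 78 bases before the start in *CXCL1* and *CXCL3*, 77 bases in *CXCL2*, 90 bases in *CXCL5*, 91 bases in *CXCL8*, 72 bases in *IL6* and, on the opposite strand, 79 bases in *CCL20*. *CXCL1*, *CXCL2* and *CXCL3* each held a second match that began 53 bases before the start. GGAATTTCC, which is contained in the first form and was chosen as the form known from *CXCL8*, so that its match there is no finding, was found in 5 of the 9 genes, the *CXCL* genes, and in 0.413% of the windows. TGANTCA was found in 2 of the 9 genes and 6.57% of the windows, and TATAAA in 3 of the 9 genes and 10.7% of the windows. A match describes the letters and is no evidence of binding. The windows of *CXCL1* and *CXCL3* were 81.4% identical, those of *CXCL2* and *CXCL3* 73.3% and those of *CXCL1* and *CXCL2* 68.0%, whereas the other 33 pairs were 40.5% to 50.7% identical. *CXCL1*, *CXCL2* and *CXCL3* are known as close paralogs. Neither transcript nor probe sequences were compared here, and a probe of *CXCL1*, *CXCL2* or *CXCL3* may also read the others.

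The targeted genes were lower in their arrays. *DONSON* had log2 ratios of treated over control of -2.15, -1.79 and -2.11 with siDONSON-1, -2 and -3 (limma adjusted p = 0.00312), and *LOXL2* had -2.49, -2.67 and -2.59 in A549-GE1, -GE2 and -GE3 (limma adjusted p = 0.0018). The median log2 ratio over all genes was between 0.018 and 0.053 on every array. The lineage markers of the control cells were incomplete: of 8 squamous markers, 1 (*SOX2*) was well above background in EBC-1, and SK-MES-1 had 4 (*TP63*, *KRT14*, *SOX2* and *PKP1*). SBC-3 had *NEUROD1*, *CHGA*, *SYP* and *DLL3* of the small cell markers, and A549 had 5 of 8 adenocarcinoma markers, without *NKX2-1*. Of 9 leukocyte markers, 4 to 6 were above background in the controls and 0 passed the test in any treatment. Of the lineage markers, *CDH1* (mean 1.36) and *NAPSA* (0.94, 1.03 and 1.02) passed as higher and *KRT18* (-0.75) as lower in edited A549. With *miR-150-3p*, *KRT14* passed as higher (1.45) and *DLL3* as lower (-0.65). In EBC-1 the *KRT14* control was not well above background, and its treated signal was so near the limit that no fold can be given. *NAPSA* averages in a probe whose A549 control was not well above background, and it had 0.15 with normexp and loess. The part of these markers in the results below was not tested.

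The control cells differed widely in these genes. *CXCL1*, *CXCL2*, *CXCL3* and *CXCL5* were well above background in all 4 lines, *IL6* in 3, *CXCL8*, *CCL2*, *IL1A* and *IL1B* in 2 and *CCL20* in 1. Levels are the log2 signal of the green channel after scaling between arrays, at each gene's brightest probe. They compare lines within a gene and not genes with each other, and no test was made, since the controls of a line may be the same RNA. In bulk RNA, fewer expressing cells and less RNA per cell cannot be told apart.

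Among the CXCR2 ligands, the level of *CXCL1* was 15.09 to 15.29 on the 3 SBC-3 arrays, 14.1 in EBC-1, 9.97 to 10.08 on the 3 A549 arrays and 8.86 in SK-MES-1. SBC-3 stood 81.5-fold above SK-MES-1. *CXCL2* and *CXCL3* were highest in EBC-1, at 14.3 and 12.92, and lowest in SK-MES-1, at 9.58 and 6.4, with the A549 arrays at 10.94 to 11.03 and 7.75 to 7.84. *CXCL5*, encoding ENA-78, had another order: SBC-3 was highest at 13.68 to 13.74, A549 had 12.23 to 12.26, SK-MES-1 had 11.95 and EBC-1, which was highest for *CXCL2* and *CXCL3*, was lowest at 6.89. *CXCL8*, encoding interleukin-8, was measured in EBC-1 at 9.69 and in SBC-3 at 9.25 to 9.41, and was not well above background in A549 and SK-MES-1, which puts EBC-1 at least 28.2-fold above A549.

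*CCL2* was measured at 10.05 to 10.07 in A549 and 9.96 in SK-MES-1, which differed by 0.10 on the log2 scale, while EBC-1 and SBC-3 were not well above background, at least 25.4-fold and at least 29.3-fold below A549. *CCL20* was above background in SK-MES-1 alone, at 5.51, close to the limit of detection. *IL6* had its highest level in EBC-1, 9.35, followed by SK-MES-1 at 8.34 and SBC-3 at 5.57 to 5.91, and it was not well above background in A549. EBC-1 had *IL1B* at 11.28 and *IL1A* at 6.25, and SK-MES-1 had *IL1B* at 9.11 and *IL1A* at 7.39. Neither interleukin-1 ligand was well above background in SBC-3 or A549, so both were measured in the squamous lines only. *CCL2* in A549 and SK-MES-1 was 1.07-fold apart, and *CXCL8* in EBC-1 and SBC-3 1.27-fold. With 1 array for EBC-1 and SK-MES-1 the spread of these lines is not known. After normexp the gaps to a line near background were smaller, with *CXCL8* at 7.66 in EBC-1 and 5.75 in A549, and *CCL2* at 7.90 in A549, 6.02 in EBC-1 and 5.71 in SBC-3, and the line highest in *CCL20* was then EBC-1.

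**Figure D1:**
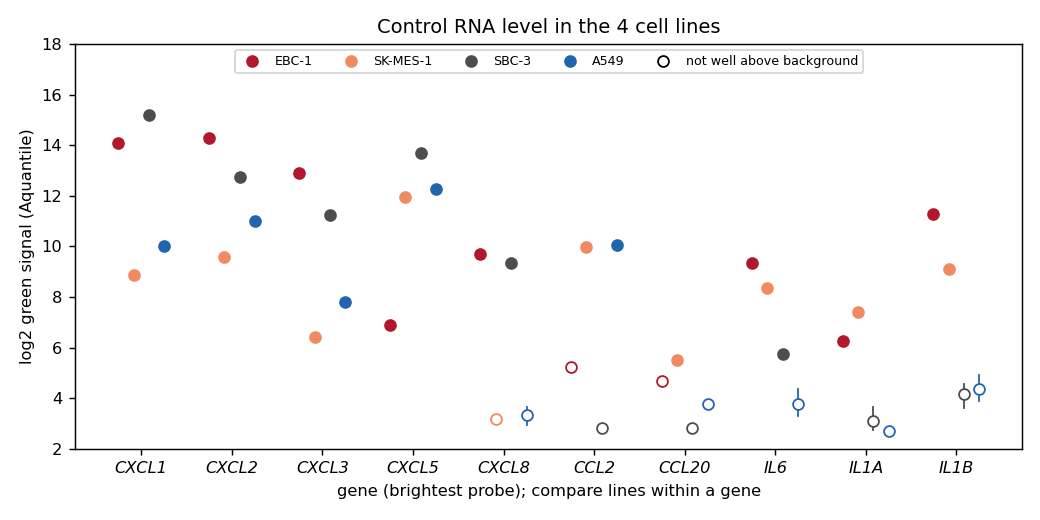
Level of each gene in the control RNA of EBC-1, SK-MES-1, SBC-3 and A549, as the log2 green signal after Aquantile scaling at the gene's brightest probe. Points are the mean of the line's arrays (1 for EBC-1 and SK-MES-1, 3 for SBC-3 and A549), vertical lines the lowest to highest array, and open points were not well above background. *CXCL1*, *CXCL2*, *CXCL3* and *CXCL5* have filled points in all 4 lines, *IL1A* and *IL1B* in EBC-1 and SK-MES-1 only.

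In A549 cells edited in *LOXL2*, 5 of the chemokine genes, *CXCL1*, *CXCL2*, *CXCL3*, *CXCL5* and *CCL2*, fell, by 2.38-fold to 4.08-fold, and *IL6* rose from below the detection limit. Of 7 genes tested, 5 were lower and 1 was higher at a limma adjusted p under 0.05. Over all 15531 genes tested, 6.27% were lower and 6.92% higher. The median of the 7 mean log2 ratios was -1.31, and that of all genes 0.022. *CXCL8*, *CCL20* and *IL1A* were not well above background in either channel of the A549 arrays and were not tested.

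*CXCL1* had log2 ratios of -2.11, -2.22 and -1.63 in A549-GE1, -GE2 and -GE3 (mean -1.98, SE 0.19, limma adjusted p = 0.00203). At its brighter probe the green signal was 1100, 1050 and 1070, and the red signal 209, 177 and 306. All 3 edited samples were below their control, and A549-GE3 least so. Both probes of *CXCL1* fell, the brighter by 2.40, 2.57 and 1.80 and the dimmer by 1.82, 1.87 and 1.45 on the log2 scale. *CXCL3* had -1.83, -1.93 and -1.63 (mean -1.80, SE 0.15, limma adjusted p = 0.00135), and its signal went from 213, 222 and 215 in the control to 60, 58.2 and 69.4. *CXCL2* had -1.25, -1.30 and -1.38 (mean -1.31, SE 0.22, limma adjusted p = 0.0115), with both of its probes between -1.16 and -1.53. *CXCL5*, whose promoter window is less like theirs, had -1.08, -1.36 and -1.31 (mean -1.25, SE 0.16, limma adjusted p = 0.00545). Its control signals of 5250, 5180 and 5470 stood against 2480, 2020 and 2210 in the edited cells.

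*CCL2*, which lies on chromosome 17 outside the cluster, had -2.02, -1.92 and -2.14 (mean -2.03, SE 0.33, limma adjusted p = 0.019). Its probe was spotted 10 times on each array, and the spots ranged from -2.17 to -1.92 in A549-GE1, from -2.05 to -1.83 in A549-GE2 and from -2.23 to -2.02 in A549-GE3. The spot ranges of the 3 arrays overlapped. *IL6* had 2.55, 3.15 and 2.05 (mean 2.58, SE 0.59, limma adjusted p = 0.0302). Its red signals were 53, 108 and 80.7, while the green signals, 9.07, 12.1 and 19.4, were not well above background on any of the arrays. The rise was at least 2.82-fold if the control is set to the lowest signal well above background. It rests on 1 of the gene's 2 probes, the other being below the limit in both channels. *IL1B* had 1.16, 1.36 and 0.32 (mean 0.94, SE 0.31, limma adjusted p = 0.107), also with a control below the limit, and did not pass the test.

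The falls of *CXCL1*, *CXCL3* and *CXCL5* passed the test in every alternative tried, but another background correction (normexp with loess) gave smaller sizes, -1.06 for *CXCL1*, -0.59 for *CXCL3*, -0.93 for *CXCL2* and -1.36 for *CCL2*, and for *IL6* 0.32 (limma adjusted p = 0.482). With the A549 arrays alone, 6 of the 7 genes passed, 5 lower and 1 higher. When any of A549-GE1, -GE2 or -GE3 was left out, 3 of the 7 genes passed. *CXCL2* (-1.34 to -1.27), *CCL2* (-2.08 to -1.97) and *IL6* (2.30 to 2.85) then kept their sizes and no longer passed. Against the mean of the other treatments, which tests the difference between the treatments, *CXCL1* was lower in the edited A549 arrays, with a log2 difference of -2.05 (SE 0.23, limma adjusted p = 0.00576), *CXCL3* with -1.88 (SE 0.18, limma adjusted p = 0.00356), *CXCL2* with -1.58 (SE 0.26, limma adjusted p = 0.0167) and *CXCL5* with -1.49 (SE 0.20, limma adjusted p = 0.00913). *IL6* had 2.42 in that comparison (SE 0.71, limma adjusted p = 0.0878) and did not pass. The treatment and the cell line cannot be told apart in that difference.

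**Figure D2:**
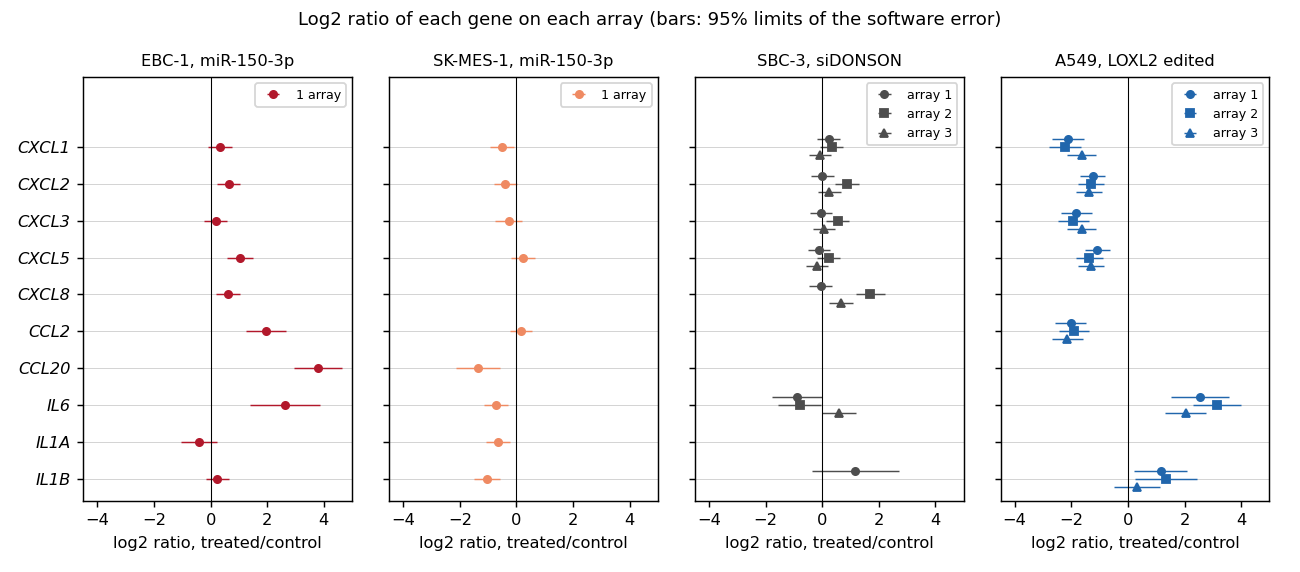
Log2 ratio of treated over control RNA for each of the 10 genes on each array, 1 panel per cell line, with bars for the 95% limits of the scanner software's error. Genes not well above background in either channel have no point. In A549, *CXCL1*, *CXCL2*, *CXCL3*, *CXCL5* and *CCL2* lie below -1 on all 3 arrays and *IL6* above 2, while in SBC-3 array 2 (siDONSON-2) lies right of the others for the *CXCL* genes.

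In SBC-3 cells, none of the genes tested passed after siDONSON transfection (0 of 6 by limma, and 0 at an unadjusted p under 0.05). Over all 14453 genes tested, 2.54% were lower and 3% higher, and 3586 were at an unadjusted p under 0.05. The median over the 6 genes was 0.17, and that of all genes 0.031. *CCL2*, *CCL20* and *IL1A* were not well above background, and *IL1B* was so with siDONSON-1 only.

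*CXCL8* had log2 ratios of -0.05, 1.70 and 0.66 with siDONSON-1, -2 and -3 (mean 0.77, SE 0.35, limma adjusted p = 0.27). Its signal rose from 548 to 1780 with siDONSON-2 and was 709 and 686 with siDONSON-1. *CXCL2* had 0.01, 0.88 and 0.25, and *CXCL3* had -0.05, 0.55 and 0.05. siDONSON-2 gave the highest value of the 3 siRNAs for 5 of the 6 genes. The share over all genes was not calculated, and probes of *CXCL1*, *CXCL2* and *CXCL3* may read each other. *CXCL1* had 0.23, 0.34 and -0.07, and *CXCL5* had -0.12, 0.23 and -0.19. *IL6* had -0.88, -0.79 and 0.60, with siDONSON-3 opposite to the others. Each siRNA had 1 array, so no siRNA was tested against another. The treated RNAs of SBC-3 differed from each other by an SD of 0.368 to 0.499 over bright probes, against 0.128 to 0.17 for those of A549.

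After *miR-150-3p* transfection, *CCL20*, *IL6* and *CCL2* had the highest log2 ratios of the genes in EBC-1, and 7 of 9 genes were below their control in SK-MES-1. No gene passed over both arrays (0 of 9 by limma). Over all 14228 genes tested, 1.43% were lower and 1.16% higher. At an unadjusted p under 0.05 there were 3 of the 9, *CXCL5*, *CCL2* and *IL1A*, beside 4018 of the 14228 genes. In EBC-1, 9 of 10 genes were above 0, while 45.9% of all genes of that array were below 0. Of the 10 genes, 6 were higher beyond the 95% limits of the software's error, as were 19% of all genes of that array, with 17.9% lower. In SK-MES-1, where 47.5% of all genes were below 0, 5 of the 9 were lower beyond those limits, as were 7.47% of all genes of that array, with 7.4% higher. The software's error covers noise within an array and not between cultures.

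*CCL20*, the CCR6 ligand, had a log2 ratio of 3.80 in EBC-1, where its signal went from 25.5, not well above background, to 355, at least 8.36-fold higher. In SK-MES-1 it had -1.36, from 43.6 to 17. *IL6* had 3.41 in EBC-1 at its brighter probe, from 712 to 7570, 1.85 at a probe near the detection limit and 2.63 as their mean. In SK-MES-1 it had -0.72, from 311 to 188. *CCL2* had 1.96 in EBC-1, at least 3.44-fold higher, with 10 of 10 spots above background in the treated RNA and 2 of 10 in the control. In SK-MES-1 *CCL2* had 0.17, where the control was already at 940. The "at least" folds hold for this background correction only. With normexp and loess the mean over both arrays was 0.31 for *CCL20*, 0.55 for *IL6* and 0.23 for *CCL2*.

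The CXCR2 ligands had smaller ratios. EBC-1 had 1.04 and SK-MES-1 had 0.23 for *CXCL5*, the only one of them above 0 on both arrays (mean 0.64, SE 0.20, limma adjusted p = 0.104). *CXCL1* had 0.33 and -0.52, *CXCL2* had 0.63 and -0.39, and *CXCL3* had 0.17 and -0.28. *CXCL8* had 0.61 in EBC-1 and was not well above background in SK-MES-1. For *IL1B* the ratio was 0.24 in EBC-1, and SK-MES-1 had -1.04, where the signal went from 520 to 253. *IL1A* was below its control in both, at -0.41 and -0.65 (limma adjusted p = 0.14).

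The difference between the lines in the log2 ratio was tested for 7 genes with the spread of the other arrays. This assumes that the single arrays of EBC-1 and SK-MES-1 vary like those. The log2 ratio of *CCL2* was higher in EBC-1 by 1.79 (SE 0.22, limma adjusted p = 0.0428), the only 1 of the 7 that passed. Its signal was lower in EBC-1 (37.5 in the control, 146 in the treated RNA) than in SK-MES-1 (940 and 1060). Over all 14029 genes tested, 0.527% had a higher log2 ratio in EBC-1 and 1.58% a lower one. That call was lost with another background correction (0.09, limma adjusted p = 0.804). *IL6* differed by 3.35 (SE 0.80, limma adjusted p = 0.0983) and passed with that correction (1.77, limma adjusted p = 0.00418). *CCL20*, with the widest gap, had no other array to give a spread and was not tested. The cell lines were grown in different media according to the study's methods.

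The other genes of these pathways were taken from lists of chemokines, cytokines, receptors and genes of induction and feedback. The counts for edited A549 stand beside 6.27% lower and 6.92% higher over all genes tested. In edited A549, 2 of 5 other chemokines tested passed, *CXCL16*, a transmembrane chemokine, higher at 0.48, 0.96 and 0.79, and *PF4*, a platelet chemokine of the same cluster, lower at -1.58, -0.98 and -0.77. Of 9 other cytokines, *IL11*, of the gp130 family of *IL6*, was higher at 2.10, 2.48 and 2.09 (limma adjusted p = 0.0107) and *IL32* lower at -0.88, -0.79 and -0.82. *LIF*, another cytokine of that family, had -0.14, -0.25 and -0.19 and did not pass (limma adjusted p = 0.575). Of 8 receptors, only *ACKR3*, the atypical receptor that takes up CXCL12, passed. It had -4.64, -3.56 and -4.41 (mean -4.20, SE 0.30, limma adjusted p = 0.00137), a larger fall than that of any of the 10 genes. *CXCR1*, *CXCR2* and *CCR2*, receptors of the CXCR2 ligands and of CCL2, were not well above background in any control, while *CCR6*, the receptor of CCL20, was so in all 4 lines and did not pass in edited A549 (0.16, 0.01 and 0.24).

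Of 33 genes of induction and feedback tested in edited A549, 7 were lower and 1 was higher, beside 6.27% lower and 6.92% higher over all genes. The subunits *RELB* (mean -0.91), *NFKB2* (-0.71) and *NFKB1* (-0.54), the inhibitor *NFKBIE* (-0.77) and the interleukin-1 pathway kinase *IRAK2* (-0.45) were lower. So were *PTGS2*, encoding cyclooxygenase-2 (-1.52, SE 0.30, limma adjusted p = 0.0256), and *BIRC3*, encoding an inhibitor of apoptosis (-1.18, SE 0.12, limma adjusted p = 0.00604). *ZC3H12A*, encoding the nuclease Regnase-1 that degrades *IL6* RNA, was higher (0.73, SE 0.16, limma adjusted p = 0.0246). The median of the 33 was -0.01, and *RELA* itself and the inhibitor *NFKBIA* did not pass. Without 1 of the edited arrays, 3 to 5 of the 13 other genes named for A549 still passed, all in the same direction. *ACKR3*, *RELB* and *BIRC3* passed whichever array was left out, and *CXCL16* and *PF4* only without some. The calls of *NFKB1*, *NFKB2*, *NFKBIE*, *IRAK2*, *PTGS2*, *ZC3H12A*, *IL11* and *IL32* were lost when any edited array was left out.

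**Figure D3:**
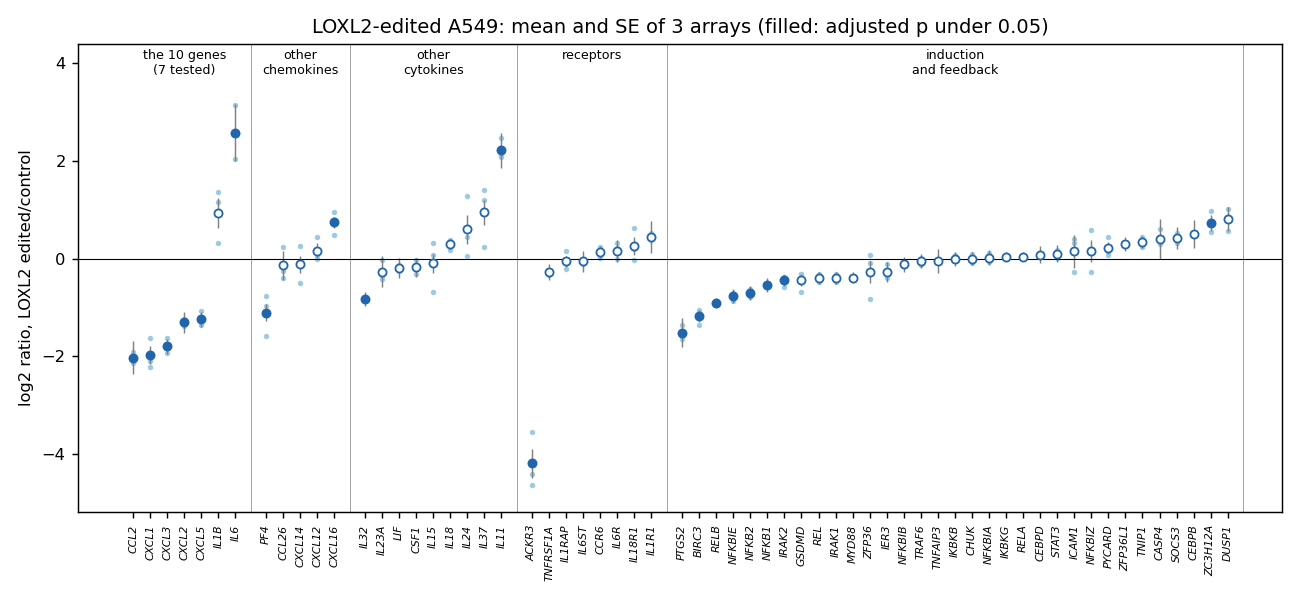
Mean log2 ratio of edited over control A549 with its SE (dark points and bars) and the 3 arrays (light dots) for every tested gene of the 5 lists. The SE uses a spread estimated over the arrays of all treatments. Filled points passed at a limma adjusted p under 0.05. The chemokine genes lie at -2.03 to -1.25, *IL6* and *IL11* above 2, and *ACKR3* lowest at -4.20.

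In the other treatments no other cytokine or receptor passed. With siDONSON, 1 of 7 other chemokines and 1 of 31 genes of induction and feedback tested passed. Over all genes, 2.54% were lower and 3% higher. For *miR-150-3p* the counts were 2 of 6 and 1 of 34, beside 1.43% lower and 1.16% higher over all genes. With siDONSON, *PF4* was lower (-0.61, -0.92 and -0.95) and *RELA*, the main transactivating subunit of NF-κB, was higher (0.35, 0.54 and 0.49, limma adjusted p = 0.0443). With *miR-150-3p*, *CXCL11*, an interferon-induced CXCR3 ligand, was higher at 2.05 in EBC-1 cells and 2.06 in the SK-MES-1 cells (limma adjusted p = 0.0354), but its control was not well above background in either line and its treated signal was so near the limit that no fold can be given. *CXCL16* was higher at 0.63 and 0.95. *MYD88*, the adaptor of interleukin-1 receptors, was lower at -0.97 and -0.98 (limma adjusted p = 0.0332).

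The *CXCL* genes are neighbors, so the cluster on chromosome 4 and the 5 protein-coding genes on either side of it were described in order, a choice made after the values of the 10 genes were seen. In edited A549, 7 of 12 genes tested were lower and 0 higher by limma, beside 6.27% lower and 6.92% higher over all genes. The count includes the *CXCL* genes that prompted this choice, so it is no separate finding about the region. Beside *CXCL1*, *PF4*, *CXCL5*, *CXCL3* and *CXCL2* the lower genes were *AFP* (-1.06, -0.57 and -0.58) before the cluster and *MTHFD2L* (-0.45, -0.90 and -0.70) directly after it. Both of these calls were lost when any edited array was left out, and with normexp and loess, where *AFP* had -0.12 and *MTHFD2L* -0.08. Farther on, the epidermal growth factor receptor ligands *EREG* (-0.84, -0.98 and -0.82, limma adjusted p = 0.0654) and *AREG* (-1.43, -1.54 and -1.46, limma adjusted p = 0.158) were below their control on all 3 arrays without passing. The spread in both tests includes the arrays of other treatments. *RASSF6*, directly before the cluster, had a mean of 0.21, *ANKRD17* 0.05 and *BTC* 0.07. The genes with values near 0 thus lay at both ends and directly before *CXCL8*.

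**Figure D4:**
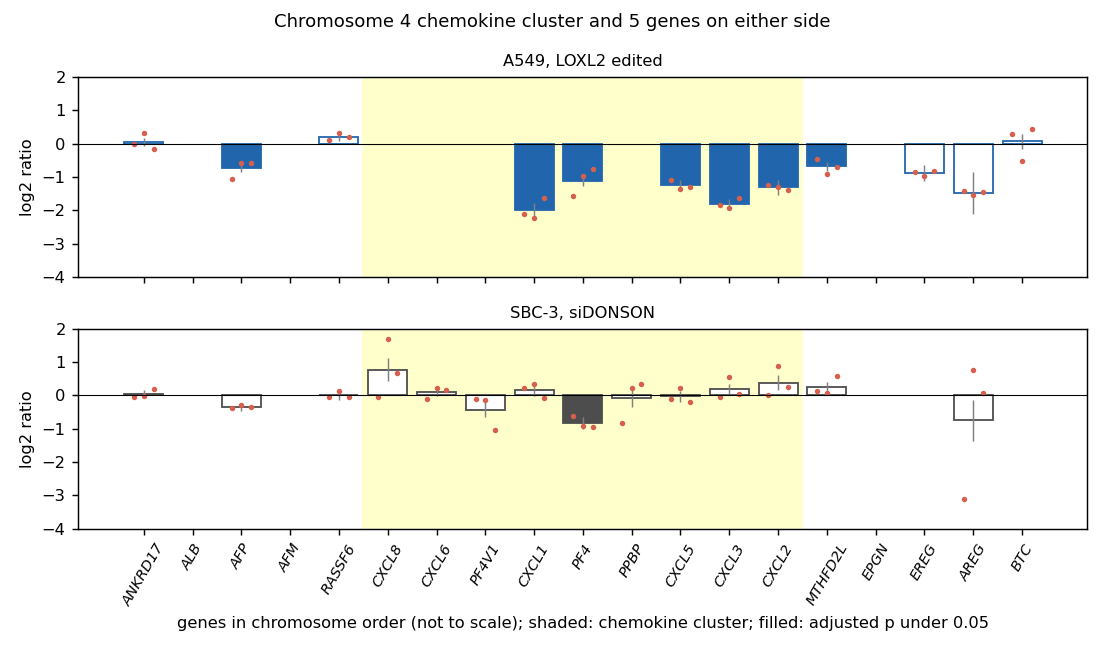
Log2 ratio of treated over control for the genes of the chromosome 4 chemokine cluster (shaded) and 5 genes on either side, in chromosome order and not to scale, in edited A549 and in siDONSON-treated SBC-3. Bars are means of 3 arrays with SE, dots the arrays, filled bars passed at a limma adjusted p under 0.05, and genes without a bar were not tested. The SE uses a spread estimated over the arrays of all treatments. In A549 the filled bars are *AFP*, *CXCL1*, *PF4*, *CXCL5*, *CXCL3*, *CXCL2* and *MTHFD2L*, and in SBC-3 *PF4* only.

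Over the 8 arrays, the log2 ratios most like those of *CXCL1*, among 12861 genes counted on every array, were those of *TRPC1* (Pearson r = 0.986), *CXCL3* (0.984), *SHARPIN* (0.984), *TMEM50A* (0.979) and *HSBP1L1* (0.976). *CXCL2* stood at rank 42 (0.949) and *CXCL5* at rank 257 (0.888), while *IL6* had -0.67. The 3 edited A549 arrays are far from the other 5 for these genes, and the likeness is a description of 8 arrays that share this split.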

How the data were processed

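RNA of 8 treated samples (Cy5) and their controls (Cy3) was hybridized to Agilent arrays. The authors deposited the output of Feature Extraction 12.1.1.1, whose processed intensities were background-subtracted and dye-normalized. A deposited table of log10 ratios holds the same values. Log2 ratios were calculated from the deposited intensities. Of 62976 spots per array, 60901 were no controls, and 81 to 133 marked as outliers were left out. None was saturated. Probes were counted when well above background in at least 1 channel (27229 to 31785 per array). Counted probes of a gene were averaged. Of 50096 accessions, 24782 matched a RefSeq gene. The number of arrays limits the precision.

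Using limma 3.58.1 (R 4.3.3), 3 groups (*miR-150-3p*, n = 2; siDONSON, n = 3; *LOXL2* editing, n = 3) were fitted to all arrays. Means were tested against 0, two-sided, with Benjamini-Hochberg adjustment over all genes at a threshold of 0.05. EBC-1 and SK-MES-1 were compared in a fit of 4 groups. A gene was tested when counted on all arrays of its group and at least 1 residual degree of freedom was left. Green levels were scaled between arrays (Aquantile), and "at least" folds use the lowest signal well above background. These folds are no strict bounds, since a probe brighter than that signal can still be marked as not well above background. On simulated data, 96 of 100 genes changed by 2 on the log2 scale were recovered for *LOXL2* editing, among 15531 genes, and 71 of 100 changed by 1.

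Alternatives were normexp (offset 50) on the median signals with loess, median centring, other filters, the brightest probe, other treatments subtracted, a group's own arrays, and leaving out each array. For green levels they were scaling by the 75th percentile and normexp. The members and gene lists were chosen with earlier results of these data known. All 10 genes, those targeted, and up to 6 genes per list and group past the threshold with the largest change are named, together with the 5 genes most like the member counted on most arrays. *NFKB1*, *IRAK2*, *RELA* and *NFKBIA* in edited A549 and the neighbors of the cluster were named after their values were seen. Promoters were aligned with Biopython 1.88. The κB form was shortened from a longer form after matches had been seen.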

Additional observations from a re-analysis of the deposited data

Results flagged for a closer look

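The log2 ratio of *CCL2* after *miR-150-3p* transfection passed a test of the difference between the squamous lines, which have 1 array each. EBC-1 had a log2 ratio of 1.96 and SK-MES-1 of 0.17, and the difference was 1.79 (SE 0.22, limma adjusted p = 0.0428). The spread in that test comes from the 3 edited A549 arrays, since *CCL2* was not well above background in SBC-3. The control of EBC-1 was not well above background. With normexp and loess the difference was 0.09 (limma adjusted p = 0.804), so it depends on the background correction.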

How the results depend on the processing

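Over the alternatives, 304 of the values kept their direction and side of the threshold, 14 changed direction, 7 newly passed and 12 no longer passed. None of those that changed direction had passed the test.

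With the other treatments subtracted, 1 gene passed for *miR-150-3p* (*CXCL5*) and 3 for siDONSON (*CXCL1*, *CXCL2* and *CXCL3*), where subtracting the low values of edited A549 raises the others by construction. In that setting *miR-150-3p* had 0.82 for *CXCL1*, 0.75 for *CXCL3* and -0.16 for *IL6*, and siDONSON had 0.47 for *CXCL5*. With normexp and loess, *miR-150-3p* had 0.06 for *CXCL1* and 0.05 for *CXCL3*. Leaving out each array gave 0 to 3 genes for *miR-150-3p*, 0 for siDONSON and 3 to 6 for *LOXL2* editing. The 3 for *miR-150-3p* came without SK-MES-1, and the 3 for *LOXL2* editing without each of its own arrays. For *miR-150-3p* the value over these fits ranged from -0.52 to 0.33 for *CXCL1*, from -0.39 to 0.63 for *CXCL2*, from -0.28 to 0.17 for *CXCL3*, from -1.04 to 0.24 for *IL1B* and from -0.72 to 2.63 for *IL6*, the ends being EBC-1 or SK-MES-1 alone. For siDONSON it was 0 for *CXCL3* without siDONSON-2 and up to 0.30 otherwise, and for *CXCL5* it was 0.02 without siDONSON-1, -0.16 without siDONSON-2 and 0.06 without siDONSON-3. Between EBC-1 and SK-MES-1, 2 genes passed with normexp and loess (*IL6* and *IL1B*), 0 with both channels above background, where *CCL2* could not be tested, and 2 without a filter (*CCL2* and *IL6*). For *IL6* in edited A549, the adjusted p ranged from 0.00815 to 0.482 by limma, and without a filter the log2 ratio was 1.18 (limma adjusted p = 0.141). Apart from these constructions the cause was not tested. Signal near background limits the genes that could not be tested in a treatment and those given as bounds. No paired analysis was possible because each array holds its own control and arrays of different treatments with the same number were not compared.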
